A study of Mus musculus with 9 samples.

Results

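Livers of mice treated with the AAV combination were compared with livers of Mock mice, 6 of the 9 arrays of the series, over 14715 of the 22142 probe sets of the array. The 3 AAV combination mice had received an AAV encoding mouse IFNα1 together with an AAV encoding L37pA, an apolipoprotein A-I mimetic peptide, both of serotype 8 with the elongation factor 1α promoter according to the methods. The 3 AAV-IFNα mice, which had received the IFNα vector alone, entered the fit and are given as context. The 3 Mock mice were not injected. All were C57BL/6 mice, 6 weeks old per the labels and female per the methods, and the livers were taken 15 days after intravenous injection. The series used here has no arm with the L37pA vector by itself or with an empty vector, and the AAV combination mice carried a second vector on top of the first, so the effects of IFNα, of L37pA and of the injected vector cannot be told apart in this comparison. A probe set was tested if its log2 value was above 5 in at least 2 arrays of any of the 3 groups. At that limit Wfdc15b was just inside, with a second highest value of 5.00003 in its best group, and Usp35 just outside, with 4.99998. A probe set was called higher or lower when limma's moderated test, two-sided, gave a Benjamini-Hochberg adjusted p under 0.05 over all 14715 probe sets, and all changes below are differences of group means on the log2 scale, AAV combination minus Mock.

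IFNα binds the receptor formed by IFNAR1 and IFNAR2, and the kinases bound to it activate STAT2. With IRF9, STAT2 is part of a factor that binds interferon-stimulated response elements (ISRE) in promoters and turns on a large set of genes, many of them antiviral. In the liver, hepatocytes, Kupffer cells and endothelial cells all carry this receptor, and AAV of serotype 8 delivers its genes mainly to hepatocytes. The tissue label was checked against hepatocyte markers, which had high values on all 6 arrays: albumin (Alb) had log2 values of 13.59, 13.64 and 13.61 in AAV combination livers and 13.61, 13.57 and 13.61 in Mock livers. Over the 17 hepatocyte markers the mean level was 12.34 to 12.42 on the AAV combination arrays and 12.20 to 12.36 on the Mock arrays, and Hpx, the heme-binding protein hemopexin, was the member called (0.57, adjusted p = 0.019), a call that ended without AAV combination replicate 3 (0.50, adjusted p = 0.10) or Mock replicate 3 (0.51, adjusted p = 0.071).

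Of the 12 genes with the largest increases, 3 belonged to the IFIT family, whose proteins bind foreign RNA. Their promoters are shown because they were the first 3, by size of increase, to hold the ISRE core, so they do not represent the 12. The windows of Oasl2, Ly6c1, Ly6c2, Gsta2 and Slfn4, also among the 12, held no match, and Gvin1 had no window. Each line below gives the 250 bases before the transcription start from RefSeq (GRCm38.p6, plus strand), with matches to the ISRE core (GAAA, any 2 bases, GAAA), searched on both strands, in capitals. Here the matches read in the reverse orientation. The windows are chr19:34607707-34607956 for Ifit3b, chr19:34583279-34583528 for Ifit3 and chr19:34640639-34640888 for Ifit1.
Ifit3b: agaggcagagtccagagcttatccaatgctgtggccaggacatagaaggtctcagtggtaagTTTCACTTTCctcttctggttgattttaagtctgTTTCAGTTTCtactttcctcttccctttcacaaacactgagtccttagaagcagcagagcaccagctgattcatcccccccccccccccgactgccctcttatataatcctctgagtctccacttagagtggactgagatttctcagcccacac
Ifit3: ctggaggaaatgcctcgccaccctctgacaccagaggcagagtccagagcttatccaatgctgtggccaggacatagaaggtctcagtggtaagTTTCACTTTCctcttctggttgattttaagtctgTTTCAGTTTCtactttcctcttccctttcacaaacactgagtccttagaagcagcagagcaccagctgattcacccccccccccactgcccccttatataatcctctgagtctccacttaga
Ifit1: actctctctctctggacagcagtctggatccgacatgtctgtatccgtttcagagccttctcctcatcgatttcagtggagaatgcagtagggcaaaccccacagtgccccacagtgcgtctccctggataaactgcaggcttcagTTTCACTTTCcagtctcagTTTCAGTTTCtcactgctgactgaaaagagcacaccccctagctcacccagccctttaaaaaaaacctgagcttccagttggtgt

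Each of these windows held 2 matches, the nearer starting 154 bases before the start of Ifit3b, 122 before that of Ifit3 and 85 before that of Ifit1. The Ifit3b and Ifit3 windows shared an unbroken run of 169 bases that includes both matches. The 2 genes are close copies, so their probe sets may read each other's transcripts and their values are uncertain as separate measurements. Serpina7, which encodes thyroxine-binding globulin and had the largest decrease, is shown beside them. Its window (chrX:139085237-139085486, minus strand) held no match, which says only that these letters are absent from it.
Serpina7: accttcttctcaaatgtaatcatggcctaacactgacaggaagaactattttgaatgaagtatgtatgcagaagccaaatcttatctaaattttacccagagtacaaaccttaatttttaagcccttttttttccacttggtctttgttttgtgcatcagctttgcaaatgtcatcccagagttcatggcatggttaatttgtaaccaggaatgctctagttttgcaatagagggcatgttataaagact

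The share of genes with an ISRE core in the 300 bases from 250 before to 50 after a start followed the size of the increase. Among called genes with an increase of at least 2, 18 of 36 with a window in the RefSeq table held the core (50%), against 32 of 121 (26.4%) with an increase of 1 to 2, 25 of 298 (8.39%) with a smaller increase and 326 of 10120 (3.22%) of the tested genes that were not called. Of the genes called lower with a window, 2 of 105 (1.9%) held it. Over the whole table it was present for 1079 of 27025 genes (3.99%), and in 1131 of 32851 windows (3.44%). All 7 guanylate-binding proteins and immunity-related GTPases with a window held the core, and so did 17 of the 40 antiviral effectors called higher that have a window (42.5%). Among genes with a window, the gamma-activated site (GAS) TTCNNNGAA was in 46 of 455 called higher (10.1%) and in 837 of 10120 not called (8.27%). Its share was 13.9% for increases of at least 2, 15.7% for those of 1 to 2 and 7.38% for smaller ones, and 4 of the 7 guanylate-binding proteins and immunity-related GTPases (57.1%) and 9 of the 40 antiviral effectors called higher (22.5%) held it, against 2582 of all 27025 genes (9.55%). A match is a description of the sequence, and binding was not measured. Related genes can share promoter sequence, as Ifit3 and Ifit3b do, so the genes counted are not all independent.

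**Figure D1:**
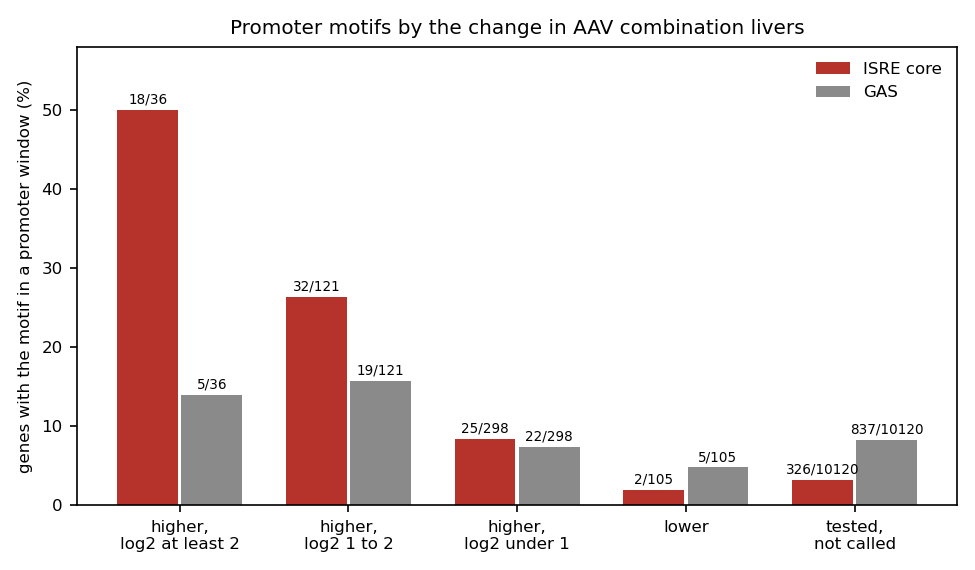
Share of genes, in percent, with the ISRE core (red) or the GAS (grey) in a promoter window of 300 bases, by the change in AAV combination livers, with the genes that hold the motif and the genes with a window printed above each bar. The ISRE share was 50% for increases of at least 2 on the log2 scale and 3.22% for genes not called.

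Increases outnumbered decreases and were larger. Of the 14715 probe sets, 616 were called higher (4.19%) and 151 lower (1.03%), so that 80.3% of the calls were increases. The median size of the change was 0.86 among the probe sets called higher and 0.59 among those called lower. An increase of at least 1 was seen for 237 called probe sets and a decrease of at least 1 for 10, and for sizes of at least 2 the counts were 56 and 2. At the B-statistic above 0 that the methods name, 335 were higher (2.28%) and 18 lower (0.122%), 2.4% in either direction. The median change over all probe sets tested was 0.00. The 3 AAV combination arrays lay entirely above or below the 3 Mock arrays for 615 of the 616 probe sets called higher and for all 151 called lower, against 15.3% of all probe sets above and 12.5% below, 27.9% in either direction. Of the probe sets called higher, 59 had a Mock mean under 5, and of those called lower 27 had an AAV combination mean under 5. The number of calls moved with which array was left out, between 322 without AAV combination replicate 3 and 817 without Mock replicate 2, and the counts without AAV combination replicate 2 (422), Mock replicate 1 (511) and Mock replicate 3 (455) were also more than 1.5 times lower.

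**Figure D2:**
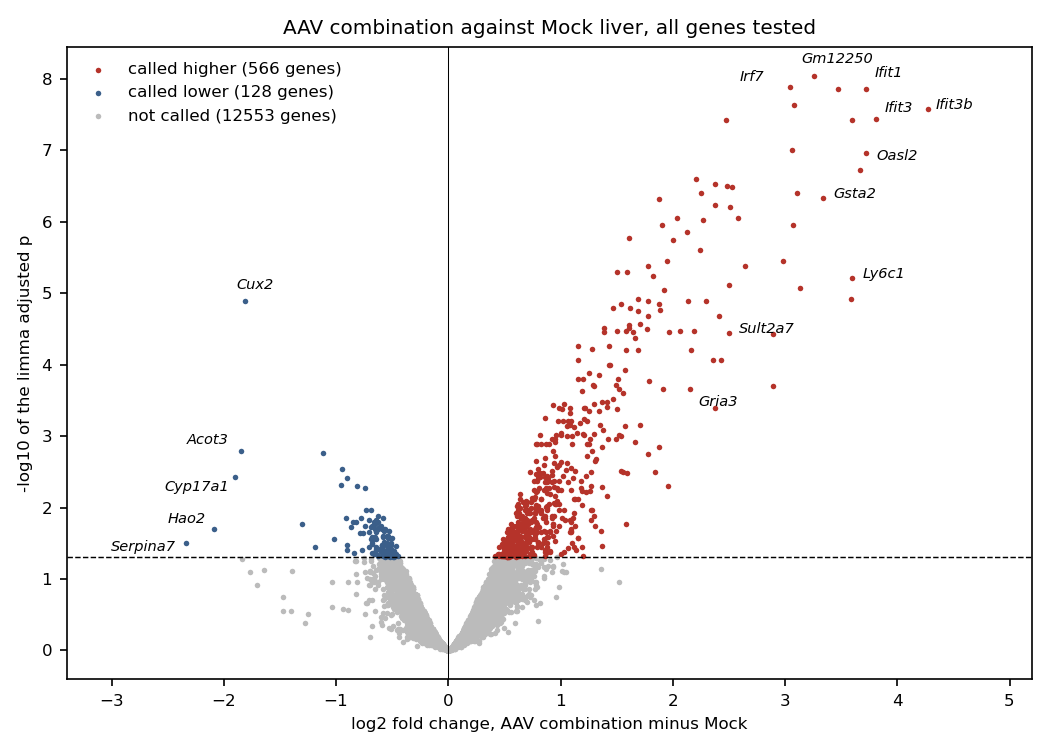
Each point is 1 of the 13247 genes tested, placed by its log2 fold change (AAV combination minus Mock) and by -log10 of its limma adjusted p, with the dashed line at 0.05. The 566 genes called higher (red) reach 4.27 at Ifit3b, while the 128 called lower (blue) reach -2.34 at Serpina7, and most lie within 1 of 0.

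The 12 largest increases were those of Ifit3b, Ifit3, Oasl2, Ifit1, Trim30a, Ly6c1, Gvin1, Ly6c2, Tgtp2, Gsta2, Gm12250 and Slfn4, from 4.27 to 3.13, and each call held in all 9 fits that left out 1 array. Ifit3b had log2 values of 11.31, 11.47 and 11.08 in AAV combination livers and 6.85, 7.38 and 6.83 in Mock livers, a change of 4.27 (SE 0.20, adjusted p = 2.6e-08) or 19.3-fold. Oasl2, an OAS-like protein that acts against RNA viruses, had 10.31, 10.40 and 10.46 in AAV combination livers and 6.24, 7.20 and 6.55 in Mock livers (3.72, SE 0.20, adjusted p = 1.1e-07). In both genes the gap between the groups was several times the spread within either group. Trim30a, a member of the tripartite motif family that restrains Toll-like receptor signalling in mice, had 8.71, 9.26 and 9.01 in AAV combination livers and 5.24, 5.51 and 5.23 in Mock livers (3.67, adjusted p = 1.9e-07). Gm12250, an interferon-inducible GTPase gene, had 9.54, 9.55 and 9.45 in AAV combination livers and 6.40, 6.29 and 6.07 in Mock livers (3.26, adjusted p = 9.0e-09). Gsta2 stands apart from the other 11 as a glutathione transferase that detoxifies reactive compounds. Its log2 values were 8.95, 9.49 and 9.55 in AAV combination livers and 6.10, 5.59 and 6.26 in Mock livers, 10.2-fold higher (3.34, SE 0.21, adjusted p = 4.7e-07). Ly6c1 and Ly6c2, close copies whose probe sets may read each other's transcripts, rose by 3.60 and 3.59 (adjusted p = 6.2e-06 and 1.2e-05).

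**Figure D3:**
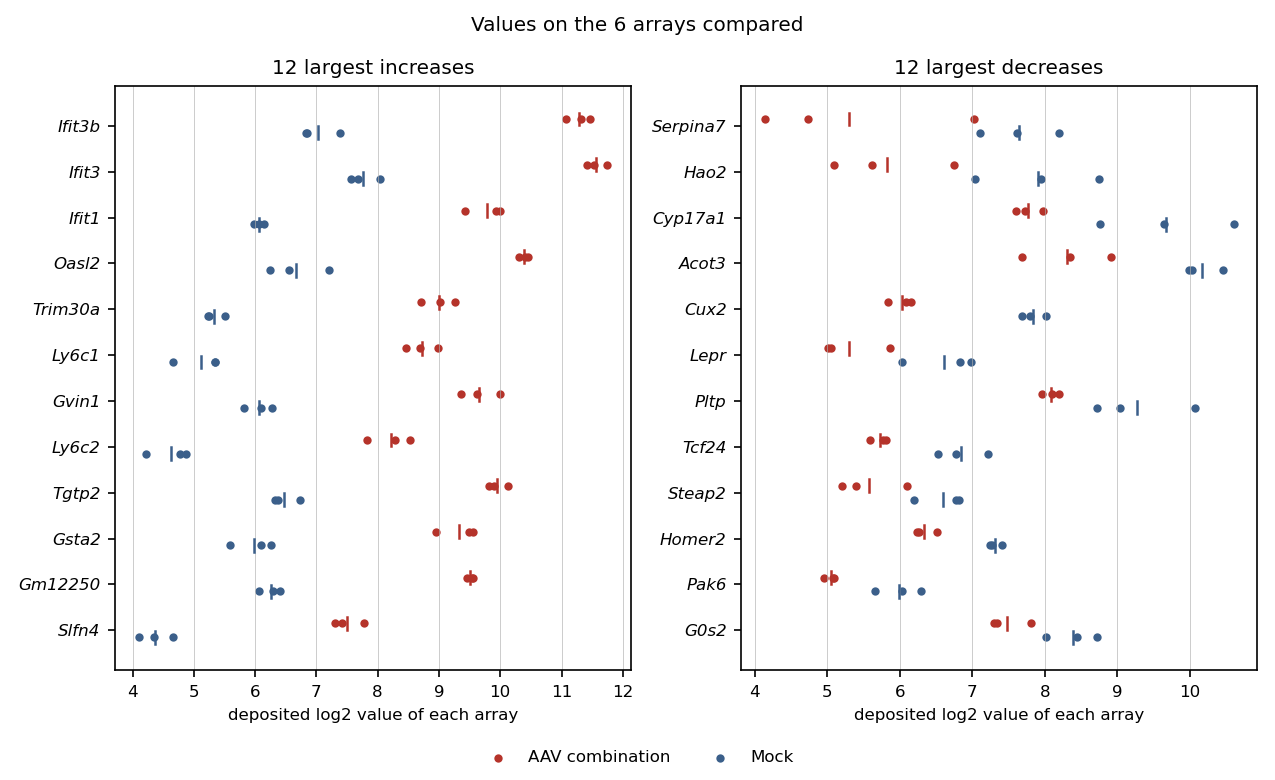
Deposited log2 value on each of the 3 AAV combination arrays (red) and the 3 Mock arrays (blue) for the 12 genes with the largest increases (left) and the 12 with the largest decreases (right) among called genes whose groups do not overlap, with short lines at the group means. The group means of the increases differ by 3.13 or more, while among the decreases Serpina7, Hao2 and Acot3 vary widely within the AAV combination group.

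Among the genes that carry the interferon signal, the ligand and a few transducers were higher and the IFNα receptor chains were not called. Ifna1, the gene the vector encodes, had log2 values of 7.06, 7.33 and 6.71 in AAV combination livers, 6.56, 6.77 and 6.40 in AAV-IFNα livers and 5.76, 5.49 and 5.30 in Mock livers, a change of 1.51 against Mock (SE 0.18, adjusted p = 1.6e-04). All AAV combination values lay above all Mock values, and whether transcripts of the vector are read by this probe set is not given in the sources used here. Of the other interferons, Ifna2, Ifna5, Ifnb1, Ifnl2 and Ifnl3 were tested with changes between -0.33 and -0.08, none of them called, and Ifna4, Ifna11, Ifna12, Ifna13, Ifne, Ifnk and Ifng did not reach the filter. The receptor chain Ifnar1 had 7.27, 7.01 and 7.36 in AAV combination livers and 6.84, 6.74 and 6.71 in Mock livers (0.45, adjusted p = 0.071), which did not overlap but did not pass the test, and Ifnar2 changed by 0.29 (adjusted p = 0.21). Ifnlr1, a receptor chain for type III interferon, fell by 0.56 (adjusted p = 0.040), a call that ended without AAV combination replicate 1 (adjusted p = 0.11) or 3 (adjusted p = 0.12), any 1 of Mock replicates 1 (adjusted p = 0.079), 2 (adjusted p = 0.071) and 3 (adjusted p = 0.11), or AAV-IFNα replicate 3 (adjusted p = 0.052).

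Of 15 transducers and interferon regulatory factors, 4 rose and none fell, with a median of 0.31. Irf7, which amplifies type I interferon production, had 10.97, 10.98 and 10.88 in AAV combination livers and 8.01, 7.87 and 7.81 in Mock livers, a change of 3.04 (SE 0.13, adjusted p = 1.3e-08). The groups lay far apart, with little spread within either. Irf9, the DNA-binding part of the ISRE-binding factor, had 8.11, 7.95 and 7.81 in AAV combination livers and 6.91, 7.11 and 6.90 in Mock livers (0.98, adjusted p = 6.1e-04). Its partner Stat2 rose by 0.77 (adjusted p = 0.012), a call that ended without AAV combination replicate 2 (0.63, adjusted p = 0.058). Irf1 rose by 0.67 (adjusted p = 0.034), and its call ended without AAV combination replicate 1 (adjusted p = 0.087), 2 (adjusted p = 0.077) or 3 (adjusted p = 0.11) and without Mock replicate 1 (adjusted p = 0.094) or 2 (adjusted p = 0.082). The count of 4 fell to 2 without AAV combination replicate 2.

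Feedback inhibitors moved little apart from Usp18. Of 15 tested, Usp18, the protease that removes ISG15 and blocks the receptor, was the member called with all arrays in the fit, and the median change was 0.12. Ptpn1, a phosphatase acting on JAK kinases, changed by 0.46 (adjusted p = 0.13) and passed the test when AAV-IFNα replicate 1 was left out (adjusted p = 0.048). Socs1, which binds and inhibits JAK kinases, had 5.14, 4.69 and 4.38 in AAV combination livers, 7.65, 6.77 and 6.47 in AAV-IFNα livers and 4.96, 4.83 and 4.98 in Mock livers. The AAV combination and Mock values overlapped (-0.19, adjusted p = 0.71), while every AAV-IFNα value lay above both. The gene passed the filter through the AAV-IFNα arrays, where it was high, so no test of that difference is given.

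Antiviral effectors rose almost throughout the list. Of 53 tested, 51 were called higher and none lower, with changes from 0.07 to 4.27 and a median of 1.44, against a median of 0.00 over all probe sets. When 1 array was left out, between 45 and 51 were called. Rsad2, or viperin, which makes a nucleotide that stops viral RNA synthesis, had 8.72, 8.51 and 8.28 in AAV combination livers and 5.36, 5.14 and 5.70 in Mock livers (3.11, SE 0.19, adjusted p = 4.0e-07). Mx1, a GTPase that traps viral nucleocapsids, had 7.34, 8.13 and 7.31 in AAV combination livers and 4.29, 5.0 and 4.57 in Mock livers, a change of 2.98. Replicate 2 was the highest in both groups. The Mock values of Mx1 did not meet the filter. It passed through treated arrays, where it was high, so no test of that difference is given. Adar, which edits adenosine to inosine in double-stranded RNA, rose by 1.12 (adjusted p = 7.4e-04), and Zc3hav1, which binds CpG-rich viral RNA, by 0.79 (adjusted p = 0.0042). The members not called were Ifitm1 (0.41) and Ifitm2 (0.07), 2 of the membrane proteins that block virus entry, while Ifitm3 of the same family rose by 0.82 (adjusted p = 0.0033).

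Of 17 sensors of viral nucleic acid and the adaptors and kinases they signal through, 9 rose, with a median of 0.81, and 8 to 10 were called when 1 array was left out. One of the 9 was the kinase Tbk1 (0.64, adjusted p = 0.018), whose call ended without AAV combination replicate 1 (adjusted p = 0.052) or 2 (adjusted p = 0.084) or Mock replicate 1 (adjusted p = 0.067). The cytosolic RNA sensors Ddx58 (RIG-I), Ifih1 (MDA5) and Dhx58 (LGP2) all rose. Ddx58 had 7.65, 8.23 and 8.04 in AAV combination livers and 6.36, 6.06 and 6.16 in Mock livers (1.78, SE 0.16, adjusted p = 1.3e-05), Ifih1 rose by 1.65 (adjusted p = 3.5e-05) and Dhx58 by 1.90 (adjusted p = 1.1e-06). Zbp1, which senses Z-form nucleic acid and can start necroptosis, had 8.66, 8.61 and 8.27 in AAV combination livers and 6.62, 6.61 and 6.33 in Mock livers (2.0, adjusted p = 1.8e-06). The endosomal receptors for double-stranded and single-stranded RNA, Tlr3 and Tlr7, rose by 1.52 (adjusted p = 2.2e-04) and 1.84 (adjusted p = 0.0032). For Tlr7 the AAV combination arrays had 6.81, 6.92 and 7.48, and the Mock arrays 5.45, 5.31 and 4.93, with replicate 3 of each group farthest from the other group.

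All 12 guanylate-binding proteins and immunity-related GTPases, which attack the membranes around intracellular pathogens, rose, with changes from 1.41 to 3.60 and a median of 2.09. All 12 were called in every fit that left out 1 array. Gbp3 had 10.04, 9.87 and 9.90 in AAV combination livers and 6.72, 7.09 and 6.76 in Mock livers, 8.45-fold higher (3.08, SE 0.14, adjusted p = 2.3e-08). Iigp1, which loads onto the vacuoles of intracellular parasites, had 9.76, 10.16 and 9.78 in AAV combination livers and 9.0, 8.29 and 7.95 in Mock livers (1.49, SE 0.22, adjusted p = 0.0011). Gbp2 had the smallest change of the list, with 7.31, 7.20 and 7.48 in AAV combination livers, 10.14, 9.65 and 9.37 in AAV-IFNα livers and 5.90, 6.06 and 5.79 in Mock livers (1.41 against Mock, adjusted p = 3.3e-04). Its AAV combination values stood between those of the other groups without overlap. Against AAV-IFNα, in a comparison that called 0.394% of all probe sets higher and 2.2% lower and shares the AAV combination arrays, all 12 members were lower, with a median of -1.07. Members of these families are alike in sequence, and their probe sets may read each other's transcripts.

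Genes of antigen presentation split by class. Of 22 genes of MHC class I presentation, which shows peptides from inside the cell, 16 rose and all 22 changes were above 0, with a median of 0.80 and 11 to 17 called when 1 array was left out. Tap1, which pumps peptides into the endoplasmic reticulum, had 9.16, 9.29 and 9.11 in AAV combination livers and 7.25, 7.66 and 7.30 in Mock livers (1.78, SE 0.17, adjusted p = 2.1e-05). The immunoproteasome subunit Psmb9 rose by 1.39 (adjusted p = 3.1e-05) and the nonclassical MHC gene H2-T22 by 1.59 (adjusted p = 5.0e-06), while the classical H2-K1 rose by 0.82 (adjusted p = 9.5e-04). MHC genes are alike in sequence, so these probe sets may be shared between them. Of 10 genes of MHC class II presentation, which shows peptides taken up from outside, Ctss was called, and the median was 0.21, with 0.40 without AAV combination replicate 2, 0.11 and 0.06 without AAV combination replicates 1 and 3 and 0.12 without Mock replicate 3. Ctss, the protease that trims the class II chaperone, had 9.14, 9.04 and 9.26 in AAV combination livers and 8.13, 8.19 and 8.41 in Mock livers (0.90, adjusted p = 0.0089), a call that ended without AAV combination replicate 3 (0.85, adjusted p = 0.053). Ciita, the master regulator of class II genes, had 4.97, 4.75 and 4.86 in AAV combination livers, 6.78, 6.40 and 6.51 in AAV-IFNα livers and 5.05, 5.03 and 4.95 in Mock livers. Its AAV combination and Mock values overlapped (-0.15, adjusted p = 0.53).

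**Figure D4:**
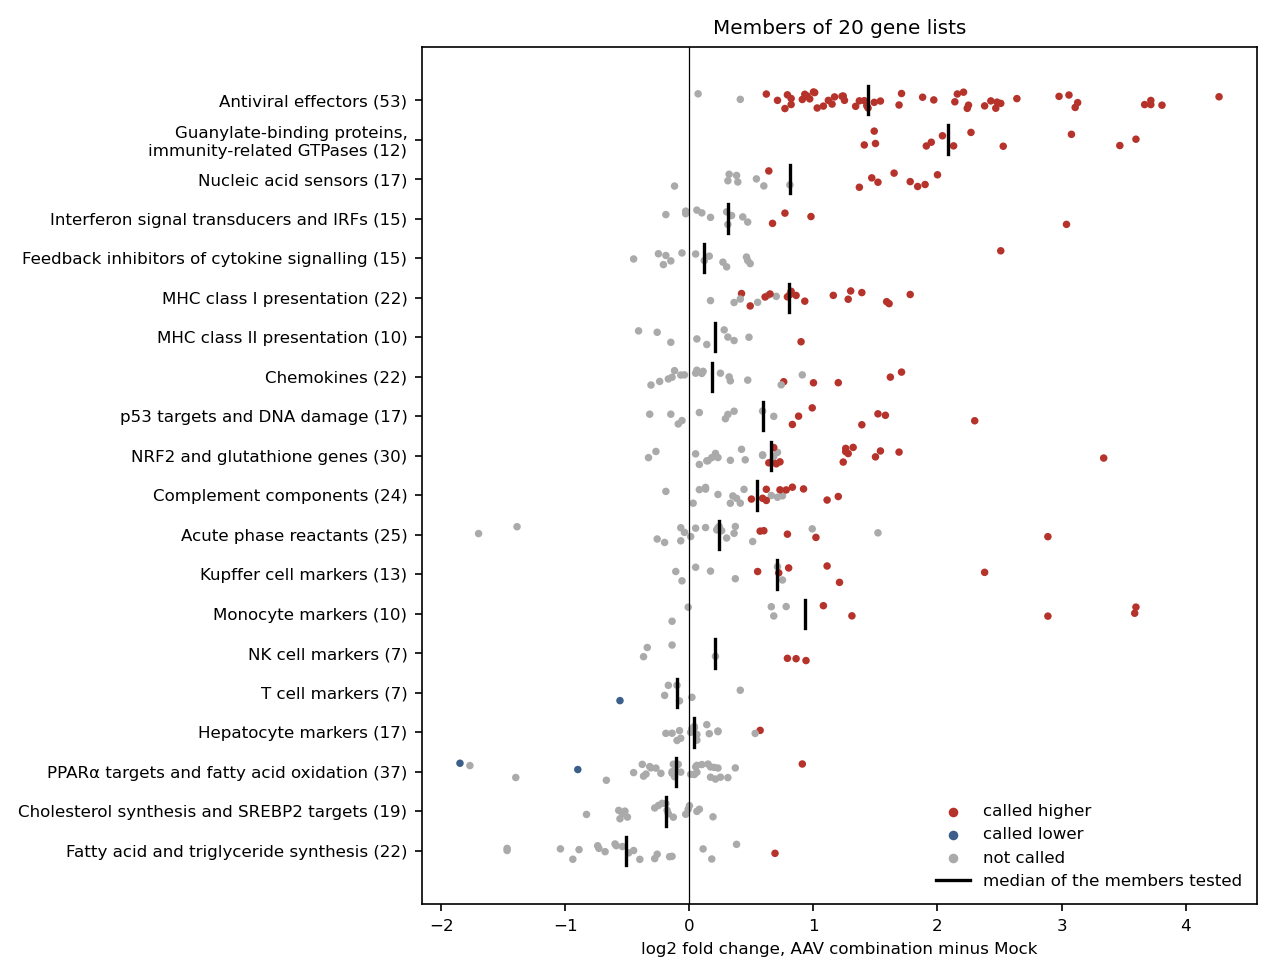
Log2 fold change (AAV combination minus Mock) of every tested member of 20 gene lists, with the number tested in brackets, coloured by call, and the median as a black line. Medians ran up to 2.09 in the guanylate-binding proteins and immunity-related GTPases and down to -0.51 in fatty acid and triglyceride synthesis, where 1 of 22 members was called and the median was -0.06 without Mock replicate 2.

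Genes called higher tended to lie next to each other on the chromosomes. In the RefSeq order of the tested genes (GRCm38.p6), 147 of the 566 genes called higher (26%) had a neighbour called higher, against 905 of the 12681 other genes (7.14%). For genes called lower the figures were 8 of 128 (6.25%) and 248 of 13119 (1.89%). The longest runs were gene families. On chromosome 19, 8 consecutive tested genes from AW112010 to Ms4a6d rose by 0.83 to 2.89, 7 of them of the MS4A family of membrane proteins of blood cells. Without AAV combination replicate 3 the calls of Ms4a4b (adjusted p = 0.056), Ms4a4d (adjusted p = 0.060), Ms4a6c (adjusted p = 0.086) and Ms4a6d (adjusted p = 0.075) ended. Those of Ms4a4d (adjusted p = 0.051) and Ms4a6c (adjusted p = 0.050) also ended without Mock replicate 3, that of Ms4a6c without Mock replicate 1 (adjusted p = 0.063) and that of Ms4a6d without AAV combination replicate 2 (adjusted p = 0.071). On chromosome 1 a run of 7 genes of the Ifi200 series, which bind DNA, rose by 1.37 to 2.58. A run of 6 on chromosome 11 reached from Irgm1 to Tgtp2, and the 5 genes of the IFIT family on chromosome 19 rose by 1.37 to 4.27. These families were picked out after their values were seen. Neighbours in a family are alike in sequence and may share probes, and its part in these runs was not tested. Not every large family moved as a block: of 40 tested TRIM genes 8 rose, with a median of -0.07, and these included Trim30a, Trim30d (3.07, adjusted p = 1.1e-06), Trim12a (1.78, adjusted p = 4.2e-06) and Trim12c (1.88, adjusted p = 4.8e-07).

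Among markers of immune cells, 6 of 13 for Kupffer cells and 5 of 10 for monocytes rose, and none of 7 for T cells and of 2 for B cells. The B cell genes tested were Blk and Sdc1, while Cd79a, Cd79b, Ms4a1, Pax5, Cr2, Jchain and Mzb1 did not reach the filter. Nor did the monocyte markers Chil3, Cx3cr1 and Ifitm6. In whole liver, more cells of a type and more RNA per cell cannot be told apart. The Kupffer cell markers had a median of 0.71 and a mean level of 7.93 to 8.29 on the AAV combination arrays and 7.36 to 7.45 on the Mock arrays, and 3 were called without AAV combination replicate 3 or without Mock replicate 3. Marco, a scavenger receptor of macrophages, had 9.24, 9.25 and 9.74 in AAV combination livers and 6.76, 6.33 and 7.98 in Mock livers (2.38, SE 0.31, adjusted p = 4.1e-04). Adgre1 (0.17), Cd163 (0.05), Csf1r (-0.11) and Timd4 (-0.06), also markers of macrophages, were not called. Cd5l, secreted by macrophages, rose by 1.21 (adjusted p = 4.1e-04), and C1qa, which starts the classical complement cascade, by 1.11 (adjusted p = 0.0038). Clec4f, the lectin specific to Kupffer cells in mice, had 8.41, 8.51 and 8.55 in AAV combination livers and 8.12, 8.26 and 7.98 in Mock livers, without overlap and without a call (0.37, adjusted p = 0.21).

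The monocyte markers that rose included Ly6c1 and Ly6c2, while Itgam (-0.01) and F13a1 (-0.14) were not called. Over the list of 10 the values had a mean level of 6.90 to 7.20 on the AAV combination arrays and 5.52 to 5.67 on the Mock arrays, and 3 were called without AAV combination replicate 3 or without Mock replicate 1. Ms4a4c had 7.88, 7.66 and 8.10 in AAV combination livers and 5.24, 4.29 and 5.45 in Mock livers (2.89, SE 0.35, adjusted p = 2.0e-04). Of 7 NK cell markers 3 rose, where 4.27% of all genes tested were called higher. The NK cell markers had a mean level of 5.52 to 5.59 on the AAV combination arrays and 5.19 to 5.43 on the Mock arrays, and 1 was called without AAV combination replicate 2 or 3. The cytotoxic granule genes Nkg7 (-0.37) and Prf1 (-0.34) and the transcription factor gene Tbx21 (-0.14) were not called. The NK cell markers Klrb1c, Klra3, Klra7, Klrd1, Klre1 and Eomes did not reach the filter. Klrk1, the activating receptor NKG2D, had 5.61, 5.49 and 5.78 in AAV combination livers and 4.68, 4.91 and 4.45 in Mock livers, a change of 0.94. Its Mock values lay under the filter limit. Klrk1 passed the filter through treated arrays, where it was high, so no test of that difference is given. None of 7 T cell markers rose, and their mean level was 5.26 to 5.36 on the AAV combination arrays and 5.27 to 5.46 on the Mock arrays. The coreceptor Cd8a had 6.07, 6.32 and 5.68 in AAV combination livers and 5.82, 5.21 and 5.79 in Mock livers, which overlapped (0.41, adjusted p = 0.36), and Cd3d and Cd3e did not reach the filter. Cd5, which restrains T cell receptor signalling, was lower by 0.56 (adjusted p = 0.050), and its call ended in the 8 fits that left out an array other than AAV-IFNα replicate 2, with adjusted p between 0.053 without Mock replicate 1 and 0.16 without Mock replicate 3. Of 7 neutrophil markers Lcn2 was called, which hepatocytes also make in the acute phase, whereas S100a8, Ngp, Ltf and Mpo did not reach the filter. None of the 14 sinusoidal endothelial, 11 stellate cell, 3 cholangiocyte and 2 B cell markers tested was called with all arrays in the fit.

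Of chemokines and of checkpoint and costimulatory molecules a minority rose, where 4.27% of all genes tested were called higher. Of 22 chemokines 5 rose, with a median of 0.18, and 3 were called without AAV combination replicate 2, Mock replicate 1 or Mock replicate 3. Cxcl9 and Cxcl10, which draw CXCR3-bearing lymphocytes, were among them. Cxcl9 had 9.49, 9.68 and 9.54 in AAV combination livers and 7.67, 8.06 and 8.14 in Mock livers (1.62, SE 0.15, adjusted p = 1.6e-05), and Cxcl10 had 7.75, 7.33 and 7.39 in AAV combination livers and 5.46, 6.10 and 5.77 in Mock livers (1.71, SE 0.24, adjusted p = 6.9e-04). Cd274, which encodes the inhibitory ligand PD-L1, had 7.06, 7.19 and 7.35 in AAV combination livers and 5.24, 5.17 and 5.51 in Mock livers, 3.72-fold higher (1.89, SE 0.17, adjusted p = 1.7e-05). Cd86, which costimulates T cells, rose by 1.13 (adjusted p = 0.0076). They were 2 of the 3 checkpoint and costimulatory molecules called of 9, and Cd40 (-0.48), Pdcd1 (-0.23) and Pdcd1lg2 (-0.26) were not called. The median of that list was 0.24, and it was 0.11 without Mock replicate 3 and 0.44 without Mock replicate 2. Of 18 genes of cell death and the inflammasome 6 rose, with a median of 0.54. They included Mlkl, the executor of necroptosis (1.35, adjusted p = 6.9e-04), Tnfsf10, which encodes TRAIL (1.18, adjusted p = 0.0042), the death receptor Fas (0.97, adjusted p = 0.0027) and Il18bp, the inhibitor of IL-18 (1.30, adjusted p = 3.6e-04).

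Some targets of p53 were among the genes called. Of 17 genes of p53 targets and DNA damage 7 were called higher, with a median of 0.59 (0.34 without Mock replicate 2), and 5 to 8 when 1 array was left out. Cdkn1a, the cell cycle inhibitor p21, had 7.40, 7.68 and 7.21 in AAV combination livers and 5.23, 5.06 and 5.09 in Mock livers, 4.93-fold higher (2.30, SE 0.20, adjusted p = 1.3e-05). Ccng1, which encodes cyclin G1, had 9.71, 9.73 and 9.71 in AAV combination livers and 8.25, 8.49 and 8.24 in Mock livers (1.39, SE 0.14, adjusted p = 3.5e-05). In both genes the AAV combination values lay close together and far above every Mock value. Gadd45a (-0.15), Gadd45b (-0.32), Bbc3 (-0.09) and Sesn2 (-0.06), also on this list, were not called. Trp53inp1 rose by 1.58 (adjusted p = 6.2e-05) and Polk, a polymerase that bypasses DNA lesions, by 0.83 (adjusted p = 0.0077). The TNF receptor family member Eda2r rose by 1.52. Eda2r passed the filter through treated arrays, where it was high, so no test of that difference is given. Mdm2, which targets p53 for degradation, rose by 0.99 (adjusted p = 0.0089), a call that ended without AAV combination replicate 3 (0.88, adjusted p = 0.056).

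Genes of glutathione and redox metabolism under NRF2, the factor that answers oxidative and electrophilic stress, rose in 14 of 30 cases with a median of 0.65, and 9 were called without AAV combination replicate 2 and 8 without AAV combination replicate 3. Beside Gsta2, the quinone reductase Nqo1 had 7.79, 7.74 and 7.87 in AAV combination livers and 5.94, 6.28 and 6.10 in Mock livers (1.69, SE 0.15, adjusted p = 1.2e-05). Gstp1 and Gstp2, close copies that may share probes, rose by 1.54 and 1.5 (adjusted p = 1.4e-05 and 3.4e-05). Hmox1, which breaks down heme, had 8.71, 8.31 and 8.63 in AAV combination livers, 9.61, 9.06 and 9.64 in AAV-IFNα livers and 7.04, 7.49 and 7.41 in Mock livers (1.24 against Mock, adjusted p = 0.0013). Srxn1, which restores oxidised peroxiredoxins, rose by 1.26 (adjusted p = 0.0058), the epoxide hydrolase Ephx1 by 1.26 (adjusted p = 0.0011) and the aldehyde oxidase Aox1 by 1.32 (adjusted p = 0.0021). The antioxidant response element TGACNNNGC, searched on both strands after the values had been seen, was in a window of 2 of the 10 NRF2 genes called higher that have a window (20%) and of 7 of the 24 tested members with a window (29.2%), against 16.4% of the genes tested and not called, 19% of those called lower and 3781 of all 27025 genes (14%).

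Secreted defence proteins of the liver changed by less. Over all genes tested, 4.27% were called higher. Of 24 complement components 10 rose, with a median of 0.54, and 5 were called without AAV combination replicate 2 or 3. C2, a protease of the classical pathway, had 9.42, 9.18 and 9.29 in AAV combination livers and 7.83, 8.20 and 8.25 in Mock livers (1.2, SE 0.14, adjusted p = 1.6e-04), and C1ra rose by 0.83 (adjusted p = 0.0013). Of 25 acute phase reactants 5 rose, with a median of 0.24 (0.12 without Mock replicate 1 and 0.39 without Mock replicate 2), and 3 were called without AAV combination replicate 3, while 2 were called lower without Mock replicate 1. Lcn2, which binds bacterial siderophores, had 9.36, 9.55 and 10.12 in AAV combination livers and 6.04, 6.93 and 7.41 in Mock livers (2.89, SE 0.29, adjusted p = 3.7e-05). Lbp, the lipopolysaccharide-binding protein, rose by 1.02 (adjusted p = 0.0036) and Serpina3n by 0.79 (adjusted p = 0.0013). Mt2 (-1.70) and Mt1 (-1.39), the lowest of the list, and Orm3 (1.52) were not called with all arrays in the fit. Of the 25 changes 18 were above 0 and 7 below. Saa1 and Saa2, the serum amyloid A proteins that surge in acute inflammation, had overlapping groups. Saa1 had 7.57, 7.30 and 7.46 in AAV combination livers, 9.03, 8.08 and 8.52 in AAV-IFNα livers and 6.75, 7.64 and 7.22 in Mock livers (0.24 against Mock, adjusted p = 0.60), and Saa2 changed by 0.13 (adjusted p = 0.83).

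The decreases were fewer and less firmly measured than the increases. Of the 12 largest, those of Cyp17a1, Acot3, Cux2, Tcf24, Homer2 and Pak6 were called in all 9 fits that left out 1 array. Cux2, a transcription factor of female mouse liver, had 5.84, 6.15 and 6.09 in AAV combination livers and 7.68, 7.80 and 8.01 in Mock livers, 3.50-fold lower (-1.81, SE 0.16, adjusted p = 1.3e-05). Cyp17a1, the steroid 17α-hydroxylase, had 7.73, 7.60 and 7.97 in AAV combination livers and 8.76, 10.60 and 9.64 in Mock livers (-1.90, SE 0.32, adjusted p = 0.0037). The groups did not overlap in either gene, and for Cyp17a1 most of the spread was among the Mock livers. Tcf24 changed by -1.12 (adjusted p = 0.0017), the synaptic scaffold gene Homer2 by -0.96 (adjusted p = 0.0048) and the kinase gene Pak6 by -0.95 (adjusted p = 0.0029). Vldlr, the receptor for very low density lipoprotein, was lower too, with 5.57, 6.05 and 5.88 in AAV combination livers and 6.79, 6.60 and 6.81 in Mock livers (-0.90, SE 0.15, adjusted p = 0.0038), and was picked out after its values were seen.

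The calls of Serpina7, Hao2, Lepr, Pltp, Steap2 and G0s2 depended on the arrays used. Serpina7 had 7.02, 4.73 and 4.14 in AAV combination livers and 8.20, 7.11 and 7.62 in Mock livers (-2.34, SE 0.57, adjusted p = 0.031). AAV combination replicate 1 lay close to the lowest Mock value and far above the other AAV combination values. Its call ended without AAV combination replicate 2 (-2.06, adjusted p = 0.12) or 3 (-1.77, adjusted p = 0.13) and without Mock replicate 1 (-2.07, adjusted p = 0.10) or 3 (-2.36, adjusted p = 0.085). Hao2, a peroxisomal hydroxyacid oxidase, had 5.62, 5.09 and 6.75 in AAV combination livers and 7.04, 8.74 and 7.94 in Mock livers (-2.09, SE 0.46, adjusted p = 0.020). Its call ended without AAV combination replicate 1 (adjusted p = 0.062) or 2 (adjusted p = 0.092) and without Mock replicate 2 (adjusted p = 0.054) or 3 (adjusted p = 0.066). The leptin receptor Lepr (-1.30, adjusted p = 0.017) was no longer called without AAV combination replicate 2 (adjusted p = 0.077) or 3 (adjusted p = 0.084) or Mock replicate 1 (adjusted p = 0.063) or 3 (adjusted p = 0.072). The phospholipid transfer protein Pltp (-1.19, adjusted p = 0.036) was no longer called without AAV combination replicate 1 (adjusted p = 0.092), 2 (adjusted p = 0.098) or 3 (adjusted p = 0.095) or Mock replicate 2 (-0.79, adjusted p = 0.060) or 3 (adjusted p = 0.061). The metalloreductase Steap2 (-1.02, adjusted p = 0.028) lost its call without AAV combination replicate 2 (adjusted p = 0.10) or 3 (adjusted p = 0.13) or Mock replicate 1 (adjusted p = 0.090) or 3 (adjusted p = 0.10), and the lipase inhibitor G0s2 (-0.91, adjusted p = 0.014) without AAV combination replicate 2 (adjusted p = 0.064) or 3 (adjusted p = 0.077) or Mock replicate 3 (adjusted p = 0.058).

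Genes of lipid metabolism showed few calls, and over all genes tested 4.27% were called higher and 0.966% lower. Of 37 targets of PPARα, the nuclear receptor that drives fatty acid oxidation, 1 rose and 2 fell, with a median of -0.11 that turned positive without AAV combination replicate 2 (0.08) or 3 (0.02) or Mock replicate 1 (0.03). The count of 2 lower was 4 without AAV combination replicate 1 or Mock replicate 2 and was 1 without AAV combination replicate 2 or 3, Mock replicate 1 or 3 or AAV-IFNα replicate 3. Acot3, an acyl-CoA thioesterase, had 8.91, 7.68 and 8.34 in AAV combination livers, 6.40, 7.31 and 6.98 in AAV-IFNα livers and 10.03, 10.46 and 9.99 in Mock livers, 3.60-fold lower than Mock (-1.85, SE 0.28, adjusted p = 0.0016). Its neighbour Acot4 fell by 0.90 (adjusted p = 0.039), a call that ended without AAV combination replicate 2 (-0.66, adjusted p = 0.14) or 3 (adjusted p = 0.11), Mock replicate 1 (adjusted p = 0.12) or 3 (adjusted p = 0.12) or AAV-IFNα replicate 3 (adjusted p = 0.051). The fatty acid transporter Cd36 was the member that rose, with 8.09, 7.73 and 8.45 in AAV combination livers and 7.35, 7.12 and 7.08 in Mock livers (0.91, adjusted p = 0.0065). None of 19 genes of cholesterol synthesis was called with all arrays in the fit, with a median of -0.19 that was 0.03 without Mock replicate 2, and 1 was called lower without Mock replicate 3 or AAV-IFNα replicate 1 or 2. Of 22 genes of fatty acid and triglyceride synthesis 18 had a change below 0, with a median of -0.51 that was -0.06 without Mock replicate 2, -0.81 without Mock replicate 1 and -0.77 without Mock replicate 3. The values varied widely: Elovl6 averaged 8.96 ± 0.22 in AAV combination livers and 10.42 ± 1.70 in Mock livers (SD, n = 3 each), and its change of -1.47 did not pass the test (adjusted p = 0.18). Pparg, called higher in that list (0.69, adjusted p = 0.022), lost its call without AAV combination replicate 2 (adjusted p = 0.094) or 3 (adjusted p = 0.070) or Mock replicate 2 (adjusted p = 0.050).

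Of 21 genes of HDL apolipoproteins, LXR targets and sterol export, 2 rose (Abcg5 and Apof) and Pltp fell. The shares called over all genes tested were 4.27% higher and 0.966% lower. The list had a median of 0.12 that was 0.01 without AAV combination replicate 1 or Mock replicate 2. None was called higher without AAV combination replicate 1 or 3, and none lower without any 1 of the AAV combination replicates or Mock replicates 2 and 3. Apof, an inhibitor of cholesteryl ester transfer in humans, rose by 0.45 (adjusted p = 0.047), a call that ended in the 8 fits that left out an array other than Mock replicate 2, with adjusted p between 0.056 and 0.16. Apoa1, the main protein of HDL, had 13.19, 12.93 and 12.88 in AAV combination livers and 13.20, 13.10 and 13.14 in Mock livers, which overlapped (-0.14, SE 0.13, adjusted p = 0.55). Apoa2 had 13.06, 12.92 and 12.88 in AAV combination livers and 13.12, 13.15 and 13.16 in Mock livers, which did not overlap but did not pass the test (-0.19, SE 0.12, adjusted p = 0.37). Scarb1, which encodes the HDL receptor SR-B1, changed by 0.20 (adjusted p = 0.56). In bile acid synthesis, Cyp7b1 of the acidic pathway had 7.82, 7.99 and 8.24 in AAV combination livers and 7.06, 7.01 and 6.98 in Mock livers, 2.0-fold higher (1.0, SE 0.18, adjusted p = 0.0056). Cyp7a1, the rate-limiting enzyme of the classical pathway, had 9.89, 10.38 and 11.15 in AAV combination livers and 9.80, 11.06 and 9.32 in Mock livers, with overlapping groups (0.42, adjusted p = 0.57). The glucuronosyltransferase Ugt2b35 rose by 1.61 (adjusted p = 3.1e-05). None of the 22 urea cycle and amino acid genes or the 19 genes of glucose and glycogen metabolism was called with all arrays in the fit, with medians of 0.11 (-0.01 to 0.25 when 1 array was left out) and 0.00 (-0.03 to 0.08).

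Some genes were higher in AAV combination livers than in both AAV-IFNα and Mock livers, and they were picked out for that after their values were seen. The comparisons with Mock and with AAV-IFNα share the AAV combination arrays. Sult2a7, a sulfotransferase of steroids and bile acids, had 6.62, 5.44 and 5.93 in AAV combination livers, 3.49, 3.81 and 3.33 in AAV-IFNα livers and 3.74, 3.56 and 3.17 in Mock livers, 2.50 above Mock and 2.45 above AAV-IFNα. It passed the filter only through the AAV combination arrays, where it was high, so no test of these differences is given. Gria3, a subunit of AMPA glutamate receptors, had 7.32, 7.32 and 7.32 in AAV combination livers, 5.18, 5.44 and 4.58 in AAV-IFNα livers and 4.50, 5.58 and 5.43 in Mock livers, 2.15 above Mock (SE 0.26, adjusted p = 2.2e-04) and 2.25 above AAV-IFNα (adjusted p = 7.1e-04). Sulf2, which removes sulfate from heparan sulfate outside the cell, had 7.53, 7.12 and 7.23 in AAV combination livers, 6.37, 6.52 and 6.51 in AAV-IFNα livers and 6.00, 6.31 and 6.35 in Mock livers, 1.07 above Mock (adjusted p = 6.2e-04) and 0.83 above AAV-IFNα (adjusted p = 0.0093). In all 3 genes the AAV combination values lay above all 6 others, and for Sulf2 the AAV-IFNα values also lay above all Mock values. Acot3 lay between the other groups, 1.42 above AAV-IFNα (adjusted p = 0.019). Over all calls, the mean of the AAV-IFNα arrays was farther from Mock than that of the AAV combination for 448 of the 616 probe sets called higher and for 56 of the 151 called lower. Of these 616 and 151 probe sets, 125 and 2 were also called between the AAV combination and AAV-IFNα. The probe sets were selected by their change from Mock, and the share over all probe sets was not counted, so no conclusion is drawn from these counts.

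**Figure D5:**
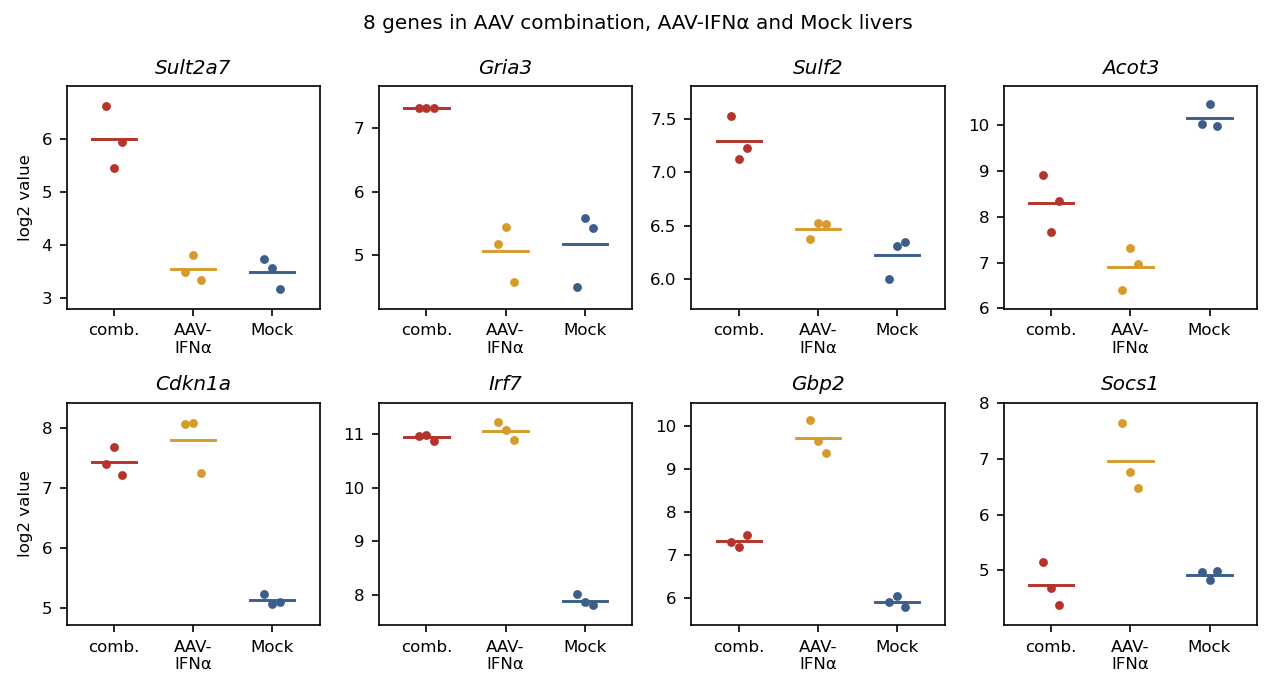
Log2 values of 8 genes on the 3 arrays each of the AAV combination (comb., red), AAV-IFNα (yellow) and Mock (blue), with lines at the group means and a separate vertical axis for each gene. Sult2a7, Gria3 and Sulf2 are highest in the AAV combination, with the AAV-IFNα values of Sulf2 (6.37 to 6.52) also above its Mock values (6.00 to 6.35), Cdkn1a and Irf7 are high in both treated groups, and Socs1 overlaps Mock in the AAV combination.

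The 3 AAV combination livers were alike but not equal in the size of their response. Their arrays correlated at 0.9801 to 0.9877, against 0.9711 to 0.9802 among Mock arrays and 0.9501 to 0.9635 between the groups, over the probe sets tested, which are not independent replicates. The median SD of a probe set was 0.148 in the AAV combination and 0.169 in Mock. Over the 616 probe sets called higher, the median change from the Mock mean was 0.81 in replicate 1, 0.85 in replicate 2 and 0.95 in replicate 3, and replicate 3 was the highest of the 3 for 294 of them and replicate 1 the lowest for 290. Over the 151 called lower, the median change was -0.57, -0.60 and -0.64 in replicates 1, 2 and 3. The called genes with the widest range over the 3 livers were Serpina7, Hao2, Acot3, Clec2h, Spic and Sult2a7. Clec2h, a C-type lectin-like gene, had 6.93, 7.88 and 8.42 in AAV combination livers and 6.02, 6.19 and 6.27 in Mock livers (1.58, adjusted p = 0.017), a call that ended without AAV combination replicate 2 (adjusted p = 0.069) or 3 (1.25, adjusted p = 0.083) or Mock replicate 1 (adjusted p = 0.060). Spic, a transcription factor of macrophages that recycle iron, had 5.82, 5.03 and 6.16 in AAV combination livers and 4.04, 3.87 and 4.13 in Mock livers, a change of 1.66. Every Mock value of Spic lay under the filter limit. The gene passed the filter through treated arrays, where it was high, so no test of that difference is given. Nothing in the labels says more of the replicates than their number, while a figure legend of the study gives 3 mice per group. The p-values thus measure only the spread between mice within the 3 groups of the fit, AAV-IFNα included, with any technical spread in it.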

How the data were processed

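Liver RNA of 9 mice was hybridised to Affymetrix Clariom S mouse arrays according to the methods, although polyA RNA is given in the labels and a different Affymetrix array in the design text. The authors deposited log2 values, 1 per probe set and array, made by RMA, which corrects background, normalizes the arrays to each other and summarises probes. The annotation gives 1 gene symbol for 19527 of 22142 probe sets and 2615 were unnamed here. Array medians were 5.78 to 5.83 and precision is limited by how few arrays there are.

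Groups were taken from the labels. The tests used limma 3.58.1 (R 4.3.3) and 1 fit of all 9 arrays (6 residual degrees of freedom), without a replicate block, after the filter of the methods (log2 above 5 in at least 2 arrays of 1 group), which kept 14715 probe sets here. The methods give a larger number for this criterion, close to the whole array. With 3 against 3 samples the fit rests on a spread shared between probe sets, and limma's prior had 6.91 degrees of freedom. Counts over genes take, of a gene's probe sets, the one of highest mean. In simulated arrays with independent noise, the fit recovered an added change of 2 on the log2 scale. Recovery of smaller changes, which most calls were, is not given.

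Genes were named from the 12 largest increases and the 12 largest decreases among called genes without overlap between groups, the called members of 43 gene lists, of which the text gives examples (where fewer than 2 were called, the 2 with the smallest p), Ifna1, Apoa1, Apoa2, the 6 called genes with the widest range in the AAV combination, and the genes at the filter limit. Others are said to have been picked after their values were seen, as were Alb, Ciita, Socs1, Clec4f, Saa1, Saa2, Cyp7a1, Scarb1, Ifnar1, Ifnar2, Cd8a, Elovl6 and the members shown as not called. The comparison, the members and the lists were chosen with earlier results of these data known. Of 892 listed genes 732 were tested, 66 lay under the filter and 94 had no named probe set. Promoters came from RefSeq tables of GRCm38.p6. Other filters, priors, normalizations, array weights, thresholds and fits without each array were tried. Python 3.11.15 and matplotlib 3.10.9 were used for counts and figures.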

Additional observations from a re-analysis of the deposited data

How the results depend on the processing

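Against 767 changed probe sets (616 higher, 151 lower), array weights gave 1176 (292 lower), an unmoderated linear model 295 (253 higher, 42 lower), a B-statistic above 0 353 (335 and 18) and a change of at least 1 on the log2 scale 247 (237 and 10). Fits without 1 array gave 322 to 817 changed, 296 to 656 higher and 26 to 161 lower, lowest without AAV combination replicate 3 and highest without Mock replicate 2. With the replicate number as a block 832 were changed (661 and 171). The samples share only a number: deviations of same-numbered samples correlated at 0.142, 0.0982 and -0.129. No filter gave 652, a limit of 6 instead of 5 836, a robust prior trended on mean level 848, the 6 arrays alone 690, quantile normalization 727 (73.3% higher) and centring on the median 876 (87.8% higher). Every call shared with the main count had the same direction. That was fixed in advance for settings that leave the group means unchanged, such as other filters, priors and the unmoderated model. Of the 224 called genes that meet the naming rule or were added to it, not all of them in the text, 150 were called in every fit without 1 array and 113 also under every other alternative, and none changed sign. The number of arrays and the lack of an L37pA or control vector group limit what the comparison can show.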

Other observations

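Lists of the circadian clock, the unfolded protein response, coagulation and the cell cycle held few calls in AAV combination livers. Of 16 circadian clock genes none was called, with a median change of -0.07 (-0.11 to -0.01 when 1 array was left out), and none was called when any 1 array was left out. Of 19 genes of the unfolded protein response none was called with all arrays in the fit (median -0.02), and 1 was called without Mock replicate 1. Dnajb9, an endoplasmic reticulum chaperone, had 8.55, 8.72 and 8.32 in AAV combination livers and 8.39, 7.58 and 7.96 in Mock livers (0.55, adjusted p = 0.11, limma), and passed the test without Mock replicate 1 (0.76, adjusted p = 0.037). Of 20 coagulation genes none was called with all arrays in the fit, and 1 was called without Mock replicate 2. Of 21 cell cycle genes Mcm6, part of the helicase that opens DNA for replication, was called, with 6.05, 6.26 and 6.32 in AAV combination livers and 5.46, 5.41 and 5.42 in Mock livers (0.78, adjusted p = 0.0034). Plk1, a mitotic kinase, had 4.90, 5.17 and 5.17 in AAV combination livers and 4.67, 3.61 and 4.41 in Mock livers, a change of 0.85. Every Mock value of Plk1 lay under the filter limit. The gene passed the filter through treated arrays, where it was high, so no test of that difference is given. The list held 2 calls without AAV combination replicate 1 and 3 without Mock replicate 2.

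Single genes picked out after their values were seen add to these. Myc, a transcription factor of growth, had 7.95, 7.84 and 8.64 in AAV combination livers and 5.28, 7.04 and 6.22 in Mock livers (1.96, SE 0.35, adjusted p = 0.0050); the groups did not overlap. Vcam1, which lets leukocytes adhere to endothelium, had 7.29, 7.28 and 7.58 in AAV combination livers, 8.72, 8.37 and 8.22 in AAV-IFNα livers and 6.33, 6.45 and 6.19 in Mock livers (1.06 against Mock, adjusted p = 0.0010). Its AAV combination values stood between those of the other groups without overlap. Mpeg1, the pore-forming perforin-2 of macrophages, had 9.61, 9.70 and 9.88 in AAV combination livers and 7.22, 7.56 and 7.28 in Mock livers (2.38, SE 0.16, adjusted p = 5.9e-07), and the pan-leukocyte gene Ptprc had 8.16, 8.06 and 8.59 in AAV combination livers and 7.31, 7.23 and 7.40 in Mock livers (0.96, adjusted p = 0.0089), a call that ended without AAV combination replicate 3 (0.80, adjusted p = 0.054).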
